A study of Danio rerio with 4 samples.

Results

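Ribosome-protected fragments and RNA were compared gene by gene in the heads of normal zebrafish siblings at 5 days post-fertilization (dpf), to describe which genes carried many and which carried few ribosomes for their RNA. The study sequenced 4 libraries, a Ribo-seq and an RNA-seq library from the heads of siblings and the same pair from the heads of noc4l mutants, which carry a 5-base-pair deletion in a gene needed to build the small ribosomal subunit. The labels call the siblings WT and do not separate wild-type from heterozygous fish. No treatment is listed for the fish, each assay had 1 library per genotype, and how many heads went into a library is not stated in the sources read. Ribo-seq started from heads dissociated with trypsin. Cycloheximide held the ribosomes in place, RNase removed unshielded RNA, and a sucrose gradient separated what the ribosomes had covered. For the sibling RNA-seq library, RNA was extracted with TRIZOL and selected for poly(A) tails. The labels repeat that poly(A) protocol for the Ribo-seq libraries as well. The 2 tables were joined by gene ID, the 4 Ribo-seq loci with the most counts were set aside, counts were scaled to the same total in each library (CPM), and genes with at least 50 counts in each sibling library were kept. Of 26662 gene IDs in the series, 25196 were in both tables and 12455 passed. The result for each gene is the log2 ratio of Ribo-seq CPM over RNA-seq CPM, so a positive value means more footprints than RNA.

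A ribosome that is reading an mRNA shields a short stretch of it from RNase, and sequencing these footprints counts ribosomes on each coding sequence. Set against the RNA of the same gene, footprints give a relative ribosome load, often called translation efficiency. Some mRNA classes are known for regulated loading, among them ribosomal protein mRNAs with a 5′ terminal oligopyrimidine tract, stress transcription factors with upstream open reading frames, ferritin mRNAs with an iron-responsive element, and selenoprotein mRNAs that read a stop codon as selenocysteine.

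The sibling Ribo-seq library held 5960581 counts after the 4 loci were set aside and the sibling RNA-seq library held 15018488. The loci took 51.1% of the sibling footprint counts before that step. With 1 library per assay there was no replicate, so no test was made and no p-value is given. Intervals are exact 95% counting intervals of the ratio, cover counting error only, and had a median width of 0.54. Head markers were present in both assays. The neuron gene elavl3 had 263 CPM in footprints and 180 CPM in RNA, the photoreceptor gene rho had 563 and 343 CPM, and the cartilage collagen gene col2a1a had 5935 and 1014 CPM, footprints first. Markers of liver, exocrine pancreas and intestine were also present and are described below, since their shares differed between the assays.

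Over the 12455 genes the log2 ratio had a median of 0.35, quartiles of -0.28 and 1.04, and a range of -5.87 to 6.82. At 2-fold or more, 3250 genes were high (26.1%), with more footprints than RNA, 1087 were low (8.73%) and 8118 lay between. The counting interval lay wholly past 2-fold for 2347 of the high and 718 of the low genes. Just inside the limits, 323 high and 159 low genes lay within 0.1 of 2-fold. The count minimum bears on these numbers, because a gene with 50 counts in both libraries has a ratio of 1.33. A gene had to be high if it had 62 RNA counts or fewer (268 genes) and could not be low with fewer than 252 RNA counts (4248 genes). Among the 5014 genes with at least 500 RNA counts, where neither limit acts, 658 were high, 857 were low and the median was 0.02. The minimum of 50 footprint counts still held there, so genes with fewer footprints were missing from the low end. For lists with a larger share of high genes than all genes, counts are also given for that subset.

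**Figure D1:**
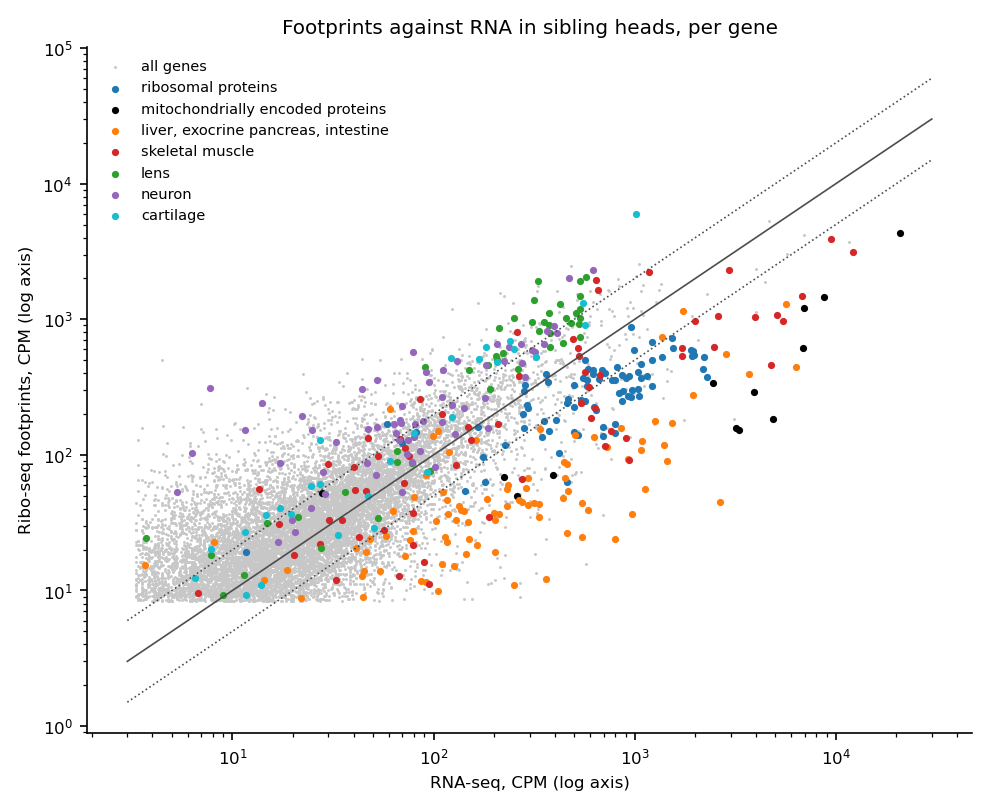
Ribo-seq CPM against RNA-seq CPM for 12455 genes of sibling heads, both on log axes, with the solid line at equal CPM and the dotted lines at 2-fold. Most ribosomal protein genes (48 of 80), mitochondrially encoded genes (12 of 13) and digestive organ genes (77 of 93) lie below the lower 2-fold line, and neuron, lens and cartilage genes lie mostly above the solid line.

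Genes of the cytosolic ribosomal proteins had few footprints for their RNA. The 80 ribosomal protein genes together took 2.54% of footprint counts and 6.18% of RNA counts, and 48 of them were low and 1 was high. Among 34 small-subunit genes 23 were low and none was high, with a median of -1.29, and among 46 large-subunit genes 25 were low, with a median of -1.16. Only 1 of the small-subunit and 3 of the large-subunit genes lay above the median of all genes. With at least 500 RNA counts the counts of low genes were the same, 23 of 33 and 25 of 46.

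The members differed more than their counting error. rps2, a small-subunit protein gene, had 427 CPM in footprints against 2174 CPM in RNA, a log2 ratio of -2.35 (-2.41 to -2.29). rplp0, the gene of the ribosomal stalk protein P0, had 375 CPM in footprints against 2275 CPM in RNA, a ratio of -2.60 (-2.66 to -2.54). The lowest of the small-subunit list was rps27.1 with a ratio of -2.88. The highest was rps27l, with 19.1 CPM in footprints and 11.7 CPM in RNA (0.71), and rps25 and rps29 had nearly equal CPM in both assays, with ratios of -0.11 and -0.05. In the large subunit, rpl19 had 871 CPM in footprints and 960 CPM in RNA, and rpl38 was the only high member at 168 CPM in footprints against 58.7 CPM in RNA, a ratio of 1.52 (1.39 to 1.65). Ribosomal protein genes can have near copies elsewhere in a genome, and the sources read do not say how shared reads were counted. Genes with whole counts in both libraries had medians of -1.10 (27 small-subunit genes) and -1.15 (41 large-subunit genes).

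The elongation factors had 6 of 18 low, 1 high and a median of -0.77. The 10 with whole counts had 3 low and a median of -0.10. With 20 Ribo-seq loci left out, which removed members of the list itself, the median of the remaining 16 was -0.35. eef1a1l1, which encodes the factor that brings aminoacyl-tRNA to the ribosome, had 3685 CPM in footprints against 11666 CPM in RNA, a ratio of -1.66 (-1.68 to -1.64). Its paralog eef1a1a was the high member, with 184 CPM in footprints against 72.9 CPM in RNA (1.34). eif5a, which encodes a factor that relieves stalled ribosomes, had a ratio of -2.45, and eef2b, the translocation factor, had -0.78. The 2 eef1a paralogs lay on opposite sides of equal loading, but eef1a1a had counts that were not whole. None of the 10 elongation factors with whole counts was high. tpt1, whose mRNA also begins with a pyrimidine tract in mammals, had 184 CPM in footprints against 3122 CPM in RNA (-4.08).

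Initiation factors were spread more widely, with 11 of 54 low, 4 high and a median of -0.21. The low end was held by genes of poly(A)-binding proteins, pabpc1b (-3.08), pabpc4 (-2.31) and pabpc1a (-1.50). The high end held eif4h (1.75), a helper of the RNA helicase eIF4A, and eif4a3 (1.29), a helicase of the exon junction complex. The helicase genes eif4a1a (0.92) and eif4a1b (-0.68) differed. Mitochondrial ribosomal proteins, made in the cytosol, had 10 of 73 low, 6 high and a median of -0.11, between those of cytosolic ribosomal proteins and all genes. Aminoacyl-tRNA synthetases had a median of 0.06, with kars1 lowest (-1.46) and iars1 highest (1.57).

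Ribosome biogenesis genes, whose proteins build ribosomes in the nucleolus, had 3 of 62 low, 6 high and a median of 0.13. Of the 62, 43 lay below the median of all genes (0.35). With at least 500 RNA counts 1 of 35 was high and 3 were low, and the median was -0.16 against 0.02 for all genes. ncl, the gene of nucleolin, had 1062 CPM in footprints and 601 CPM in RNA (0.82). The nucleophosmin paralogs npm1b (2.17) and npm1a (-0.53) lay apart, and pno1 was lowest (-1.64). noc4l itself had 15.6 CPM in footprints, from 93 counts, against 29.5 CPM in RNA, from 443 counts, a ratio of -0.92 (-1.26 to -0.59).

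The mitochondrially encoded genes were the lowest function list. All but mt-atp8 of the 13 were low, with a median of -2.58, and together they took 0.90% of footprint counts against 6.20% of RNA counts. Mitochondrial mRNAs are translated inside the organelle by its own ribosomes, and the sources read do not say which ribosomes the gradient fraction held. mt-co1, a core subunit of cytochrome oxidase, had 4337 CPM in footprints against 20785 CPM in RNA, a ratio of -2.26 (-2.28 to -2.24). mt-atp6, a subunit of the proton channel of ATP synthase, was lowest with 184 CPM in footprints against 4890 CPM in RNA (-4.74). Of the complex I genes, mt-nd1 (-4.43) and mt-nd2 (-4.34) were the lowest, while some others lay above the list median. The oxidase genes mt-co2 and mt-co3 had -2.58 and -2.52. mt-atp8 had 52.7 CPM in footprints and 27.9 CPM in RNA (0.92), and since it overlaps mt-atp6 its reads cannot be fully separated.

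Nuclear genes of the same respiratory complexes had a median of 0.32, with 19 of 86 high and 4 low, against 26.1% and 8.73% of all genes. atp5f1b, the catalytic subunit of ATP synthase, had 1655 CPM in footprints and 1326 CPM in RNA (0.32). The highest were the small complex I subunit gene ndufa2 (2.48) and atp5md (2.28), and the lowest ndufa4 (-1.25) and cox8a (-1.18). Within 1 enzyme, cytochrome oxidase, mt-co1 had -2.26 and the nuclear subunit gene cox5aa 0.95.

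Several genes known for regulated translation were among the low ones. Of 16 genes of the integrated stress response and the unfolded protein response, 6 were low and 2 high, with a median of -0.50. atf4b and atf4a, which encode the transcription factor that upstream open reading frames hold back in unstressed mammalian cells, had 66.4 CPM in footprints against 341 CPM in RNA (-2.36) and 31.9 CPM against 175 CPM (-2.45). atf5b (-2.88), atf5a (-1.51) and ppp1r15a (-1.74), whose mammalian counterparts carry such upstream frames too, were also low. chac1, a glutathione-degrading enzyme gene that ATF4 controls in mammals, had the lowest ratio of the list, with 12.4 CPM in footprints against 224 CPM in RNA (-4.17). ddit3 lay at -0.92, the chaperone gene hspa5 at 0.28 and the growth regulator gene ddit4 at 1.53, so the list held both ends.

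Of 12 iron genes 3 were high and 4 low, with a median of 0.04. fth1a and fthl27, ferritin genes of iron storage, had ratios of -2.70 and -2.58, and the iron exporter gene slc40a1 had -3.10. The transferrin receptor gene tfr1a, for iron uptake, had 101 CPM in footprints against 17.8 CPM in RNA (2.51), and its paralog tfr1b had 0.60. aco1, whose mammalian counterpart is an iron sensor that binds ferritin mRNA, had 1.12. Ferritin genes were not all low, as fth1b had 1.17.

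Selenoprotein genes had 11 of 23 low, 2 high and a median of -0.81. selenop, the plasma selenium carrier, had 123 CPM in footprints against 1381 CPM in RNA (-3.49), and gpx4a, a lipid peroxidase, had 18.1 CPM against 227 CPM (-3.64). sephs2, which makes the selenium donor, had -2.89. gpx3 (2.59) and selenoi (1.36) were the high members, both at low RNA counts. Transcripts of this list had short coding parts, a median of 44.8% of the transcript, and per length (TPM over FPKM) the median was 0.14, against 0.43 for all genes, with 7 low and 2 high. Polyamine genes were alike, with 5 of 13 low, none high and a median of -0.43. amd1, which makes the donor of polyamine synthesis and has an upstream frame in mammals, had a ratio of -2.76, azin1b -2.77 and the ornithine decarboxylase gene odc1 0.80, and per length the list median was 0.06, with 3 low and 5 high.

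Of the protein quality control genes, proteasome subunits lay close together, with 7 of 48 high, none low, a median of 0.43 and a range of -0.98 to 1.31. Heat shock and chaperonin genes spanned a much wider range, -3.17 to 4.11, with 8 of 39 high and 5 low. The constitutive chaperone genes hspa8 (-0.91) and hsp90ab1 (-1.24) were below equal loading, while the heat-inducible genes hsp70.3 (4.11), hsp70.2 (3.76) and hsp70l (2.95) were high. hsp70.3 had 117 CPM in footprints against 6.74 CPM in RNA. These inducible genes are near copies of each other, so the values of single members are uncertain. In the ER import list, 2 of 29 were low (sec61a1 -1.09, sec61g -1.24) and none high, with a median of -0.13.

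Glycolytic genes had a median of 0.70, with 14 of 31 high and 6 low, and 8 of 24 high and 6 low with at least 500 RNA counts. The high genes included aldocb (1.42) and eno2 (1.86), the aldolase and enolase forms of brain, and pkma (1.43), and the low genes included eno3 (-1.53) and pgam2 (-1.86), the muscle forms of enolase and phosphoglycerate mutase, and pkmb (-1.89). gapdh had 182 CPM in footprints against 1751 CPM in RNA (-3.26), while its paralog gapdhs had 1214 CPM against 913 CPM (0.41). Of the 31 glycolytic genes, 51.6% had counts that were not whole. The 15 with whole counts had 5 high, 4 low and a median of 0.41, against 0.30 for all genes with whole counts. Replacement histone genes, which unlike the replication-dependent ones have poly(A) mRNAs, had 5 of 11 high, 1 low and a median of 0.90, and 4 of 9 were high with at least 500 RNA counts. Of the 11, 63.6% had counts that were not whole. The 4 with whole counts had 1 high, 1 low and a median of 0.44, against 0.30 for all genes with whole counts. h3f3d had 875 CPM in footprints against 216 CPM in RNA (2.02), and macroh2a1 was lowest (-1.19).

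Voltage-gated ion channels and neuropeptides had the highest medians of the function lists. Voltage-gated ion channels had 25 of 49 high, 1 low and a median of 1.06, but their RNA counts were small. With at least 500 RNA counts, 6 remained, none high and 1 low, with a median of -0.48. scn8aa, the sodium channel gene with the most RNA, had 153 CPM in footprints against 91.1 CPM in RNA (0.75), and cacna2d2a, a calcium channel subunit gene, was highest at 70.5 CPM against 4.59 CPM (3.94). Transmitter receptor genes had 22 of 52 high, 2 low and a median of 0.79, and 12 with at least 500 RNA counts had a median of 0.39 with none high. gabrb4, a GABA-A receptor subunit gene, was highest (3.55), the shared NMDA receptor subunit genes grin1b and grin1a had ratios of -0.27 and -0.26, and the low members were the muscle acetylcholine receptor genes chrnb1 (-1.33) and chrne (-1.18).

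Neuropeptide and pituitary hormone genes had 10 of 19 high, none low and a median of 1.01. Of the 6 with at least 500 RNA counts 1 was high, and their median was 0.72. The growth hormone gene gh1 had 43.3 CPM in footprints against 9.32 CPM in RNA (2.22), and pomca, the precursor of ACTH and melanocyte-stimulating hormone, had 2.67 from 51 RNA counts. scg2b, a granin of secretory granules, had 393 CPM against 221 CPM (0.83). Neural transcription factor genes had 15 of 63 high, none low and a median of 0.70, from atoh8 (-0.62) to eomesa (2.77) and myt1b (2.92). tfap2a had -0.03 and neurod1 0.42. The share of high genes in this list, 23.8%, was near that of all genes, and with at least 500 RNA counts 3 of 22 were high. Transcripts of this list were a median of 47.1% coding, and per length 31 of the 63 were high (49.2%, against 29.6% of all genes). Immediate early genes had 6 of 31 high, 2 low and a median of 0.26, with egr1 at -0.96, fosab at 0.10 and junbb at 1.11. Clock genes had 6 of 25 high and 3 low, 24% and 12%, near the 26.1% and 8.73% of all genes. They reached from cry3a (-2.39) and clockb (-1.90) to tefb (2.89), a clock output factor with 510 CPM in footprints against 68.8 CPM in RNA. Of the 25 clock genes, 60% had counts that were not whole, and the 10 with whole counts had 2 high and 2 low. Of the large zinc finger family, 109 genes passed the minimum, with 17 high and a median of 0.14, and a minimum of 10 counts gave 78 of 243 high and a median of 0.48, above that of all genes at that setting (0.29). DNA replication and mitosis genes had a median of 0.28.

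**Figure D2:**
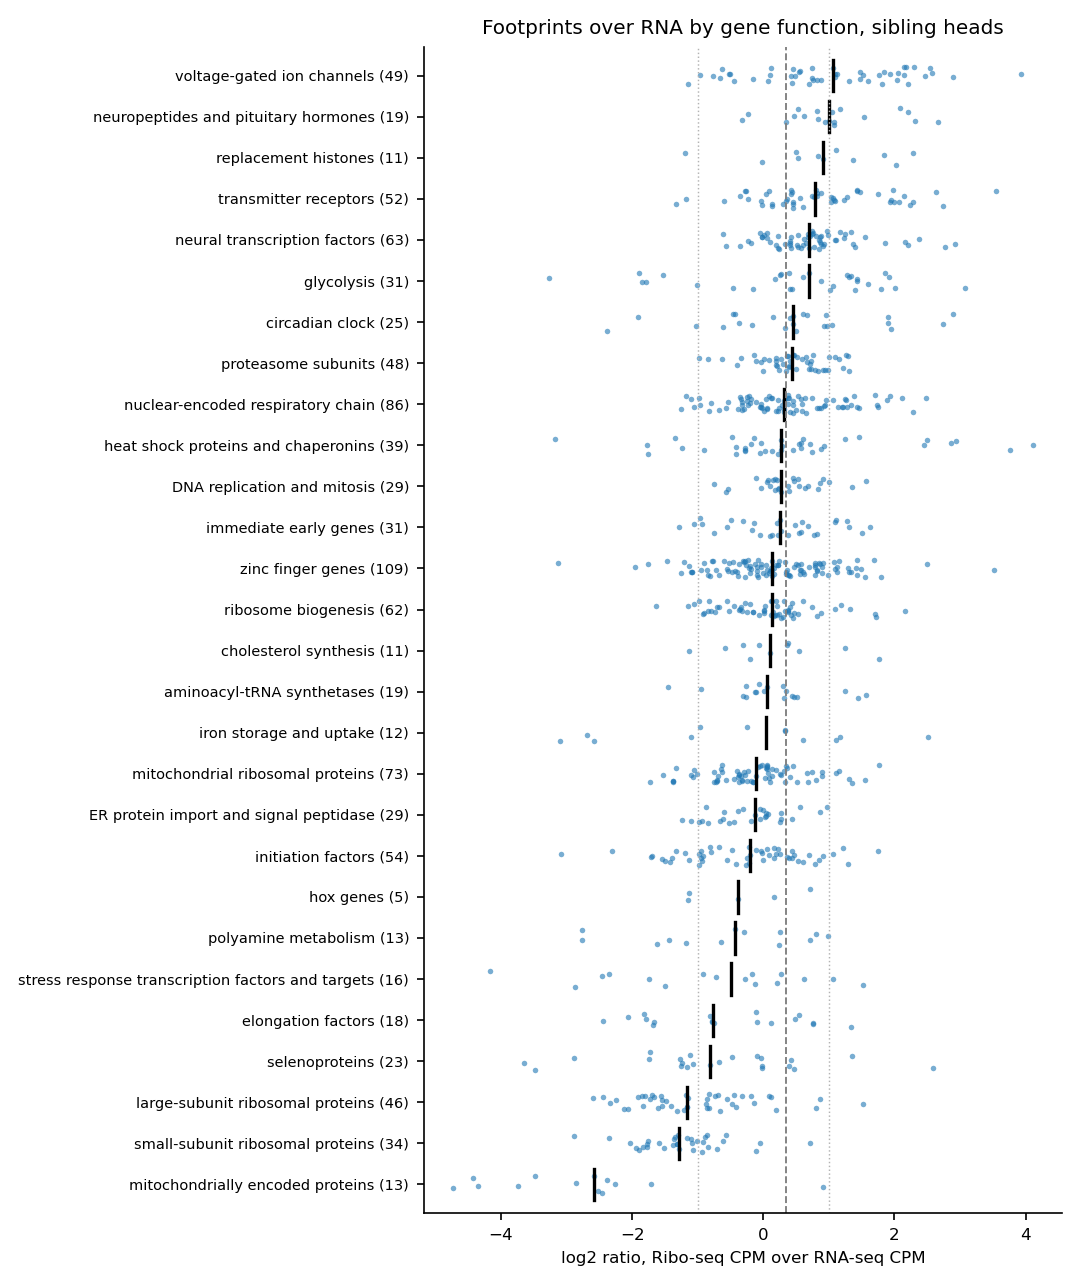
Log2 ratio of Ribo-seq CPM over RNA-seq CPM for the tested genes of each function list in sibling heads, each point 1 gene, the number tested in brackets, black bars at list medians, the dashed line at the median of all genes (0.35) and dotted lines at 2-fold. List medians run from -2.58 for mitochondrially encoded proteins to 1.06 for voltage-gated ion channels.

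Markers of the brain had more footprints than RNA. The 63 neuron genes took 2.11% of footprint counts and 0.82% of RNA counts, 36 were high and none low, and the median was 1.16. With at least 500 RNA counts, 26 of 48 were high and none low. tuba1c, a neuronal alpha-tubulin gene, had 2318 CPM in footprints against 622 CPM in RNA (1.90), and atp1a3a, the neuronal sodium pump, had 2011 CPM against 471 CPM, a ratio of 2.09 (2.05 to 2.14). snap25a, which fuses synaptic vesicles with the membrane, had 824 CPM against 367 CPM (1.17). The RNA-binding protein genes elavl3 (0.54) and elavl4 (0.40) and the GABA synthesis gene gad2 (-0.23) were lower than these. The highest were synaptic genes with little RNA, syt2a (5.32), which encodes a calcium sensor of vesicle release, and the complexin gene cplx3b (4.02).

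Glia and neural progenitor genes had 13 of 26 high, 1 low and a median of 1.03. Of the 14 with at least 500 RNA counts 5 were high, and their median was 0.63. slc1a2b, the astroglial glutamate transporter, had 1750 CPM in footprints against 331 CPM in RNA (2.40), and slc1a3b had a ratio of 3.25. glula, glutamine synthetase, had 1.07. gfap, the glial filament gene, was the low member with 20.1 CPM in footprints against 69.0 CPM in RNA (-1.78). Of the 13 myelin genes 3 were high and none low, none of the 5 with at least 500 RNA counts was high, and the myelin basic protein genes mbpb (0.10) and mbpa (-0.36) and plp1a (-0.97) lay below the median of the list (0.78). Transcripts of the myelin list were a median of 44.9% coding. Per length 10 of the 13 were high (76.9%, against 29.6% of all genes), with a median of 1.25 against 0.43 for all genes.

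The 51 photoreceptor and pigment epithelium genes had 17 high (33.3%, against 26.1% of all genes), none low and a median of 0.77. With at least 500 RNA counts 11 of 29 were high and the median was again 0.77. The visual opsin genes shown lay below the list median, as members not named here also did. opn1sw1 had 1066 CPM in footprints and 924 CPM in RNA (0.21), rho had 0.71, and opn1mw1 (-0.28) and opn1lw2 (-0.54) were below equal loading. The arrestin gene arr3a (1.17), the pigment epithelium isomerase gene rpe65a with 1615 CPM against 413 CPM (1.97), and rgrb (3.25), an opsin-like protein of retinal recycling, were high. The 44 lens genes took 3.0% of footprint counts against 1.17% of RNA counts, with 26 high, none low and a median of 1.16, and 23 of 37 high with at least 500 RNA counts. crybb1 had 2057 CPM in footprints against 570 CPM in RNA (1.85) and crygm2d1 had 1919 CPM against 329 CPM (2.54), while the water channel gene mipa had -0.33. Crystallin genes are near copies and 70.5% of the lens genes had counts that were not whole. Of the 13 with whole counts 2 were high (15.4%, against 24.1% of all genes with whole counts), with a median of 0.55.

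Cartilage had a median of 1.19, close to those of neuron and lens, and their order changed with the processing, with lens first of the 3 (1.26) at 500 RNA counts and neuron first (1.67) per length. Its 28 genes took 1.32% of footprint counts against 0.43% of RNA counts, with 15 high and none low. With at least 500 RNA counts, 8 of 17 were high and the median was 0.85. col2a1a, the main collagen of cartilage, had 5935 CPM in footprints against 1014 CPM in RNA, a ratio of 2.55 (2.52 to 2.58). sox9a, the master regulator of chondrocytes, had 129 CPM in footprints against 27.2 CPM in RNA (2.25), col9a1a had 1.22, acana, the proteoglycan aggrecan, had 1.17, and matn1 had 0.70. otos was lowest (-0.81). Bone and connective tissue genes lay near all genes at the main setting, with 8 of 29 high (27.6%), 2 low and a median of 0.42. With at least 500 RNA counts, 6 of 22 were high (27.3%, against 13.1% of all such genes). Their median was 0.38, against 0.02 for all such genes. The 15 with whole counts had 1 high, 2 low and a median of 0.09, against 0.30 for all genes with whole counts. The chains of type I collagen had ratios of 0.42 (col1a1a), 0.29 (col1a1b) and 1.12 (col1a2), and the small proteoglycan gene lum was lowest (-1.42).

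Of 18 pigment cell genes 8 were high, 8 lay between and 2 were low, and with at least 500 RNA counts 4 of 12 were high. The melanin genes dct (1.97), tyr (1.84), oca2 (2.45) and slc24a5 (2.07) were high, as was the purine gene pnp4a (1.54), while the melanosome genes pmela (0.26) and slc45a2 (-0.23) lay between. The purine synthesis genes paics (-1.88) and atic (-1.30), which iridophores use to make their reflecting crystals, were the low members. Skin genes had 9 of 37 high, 5 low and a median of 0.37. These shares, 24.3% and 13.5%, stood beside 26.1% and 8.73% of all genes. Of the 37, 56.8% had counts that were not whole. The 16 with whole counts had 5 high, 1 low and a median of 0.49, against 0.30 for all genes with whole counts. The keratins with the most RNA were at or below equal loading, krt4 with 4166 CPM in footprints against 6916 CPM in RNA (-0.73), krt5 at -0.57, cyt1 at -1.54 and krtt1c19e at -2.38. The S100 calcium-binding protein genes icn, with 1493 CPM in footprints against 223 CPM in RNA (2.74), and icn2 (2.42) were high, as was ppl (1.44), the desmosome-linked periplakin. Red cell genes had 5 of 14 high and 3 of 9 with at least 500 RNA counts. Larval globin genes, near copies of each other, ran from hbbe1.1 (-1.26) to hbae1.1 (3.59). Endothelial genes had 3 of 15 high, 1 low and a median of -0.09, and the vessel receptor gene kdrl had -0.21.

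Skeletal muscle genes had few footprints for their RNA in part. They took 3.17% of footprint counts against 7.51% of RNA counts, with 28 of 64 low, 8 high and a median of -0.54. Fast muscle genes with much RNA were low. myhz1.2 had 1477 CPM in footprints against 6778 CPM in RNA (-2.20), the parvalbumin gene pvalb1 had 463 CPM against 4783 CPM (-3.37), the light chain gene mylpfa had -2.25 and the actin gene actc1b had -1.28. Giant sarcomere genes went the other way, with ttn.1 (1.61), ttn.2 (1.34), ryr1a (1.52) and ryr1b (1.48) high. Myosin heavy chain genes stood on both sides, since myhb had 1.65, myhz2 0.92 and myhz1.3 -3.35. They are near copies, 67.2% of the muscle genes had counts that were not whole, and the 21 with whole counts had a median of -0.14. Heart genes had 3 of 13 high, none low and a median of 0.48.

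Genes of liver, exocrine pancreas and intestine were the lowest tissue lists. Together their 93 tested genes took 0.97% of footprint counts against 5.57% of RNA counts, with 77 low and 3 high. In a bulk sample of heads, a smaller share of cells from these organs in the Ribo-seq sample and fewer ribosomes per RNA in those cells cannot be told apart. The same holds for muscle and for the brain, eye and cartilage lists, since heads for the 2 assays were processed apart and the Ribo-seq heads went through a cell suspension. With totals that left out these lists, the muscle list and the mitochondrially encoded genes, 2486 genes were high and 1581 low, and the median of all genes was 0.12.

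All 17 exocrine pancreas genes were low, with a median of -2.88 and a range of -4.53 to -1.07. prss59.2, a trypsin gene, had 171 CPM in footprints against 1527 CPM in RNA (-3.16), ctrb1, chymotrypsinogen, had 178 CPM against 1256 CPM (-2.82), and cpa5, a carboxypeptidase gene, had -3.29. Of 55 liver and plasma protein genes, 42 were low and 1 high, with a median of -1.96. apobb.1, the structural protein of lipoprotein particles, had 445 CPM in footprints against 6339 CPM in RNA, a ratio of -3.83 (-3.89 to -3.78). The transferrin gene tfa had -2.36, the fibrinogen genes fga and fgb had -1.97 and -2.60, and the liver fatty acid-binding protein gene fabp10a had -1.11. Some genes of the list had higher ratios. apoeb, which is also made by microglia, had -0.60, rbp4, made in several tissues, had -0.89, and the enzyme genes pah, which makes tyrosine, and tat, which breaks it down, had 0.51 and 0.46.

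Of 21 intestine genes 18 were low and 2 high, with a median of -3.18. apoa1a, an apolipoprotein gene, had the lowest ratio of the genes that passed the minimum. It had 45.1 CPM in footprints, from 269 counts, against 2645 CPM in RNA, from 39727 counts (-5.87, -6.05 to -5.70). fabp2, the gut fatty acid-binding protein, had 55.9 CPM against 1127 CPM (-4.33), and vil1, the brush border protein villin, had 48.5 CPM against 440 CPM (-3.18). The high members were agr2 (1.83), a chaperone of mucin-making cells that occur in skin as well, and tm4sf18 (1.49).

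**Figure D3:**
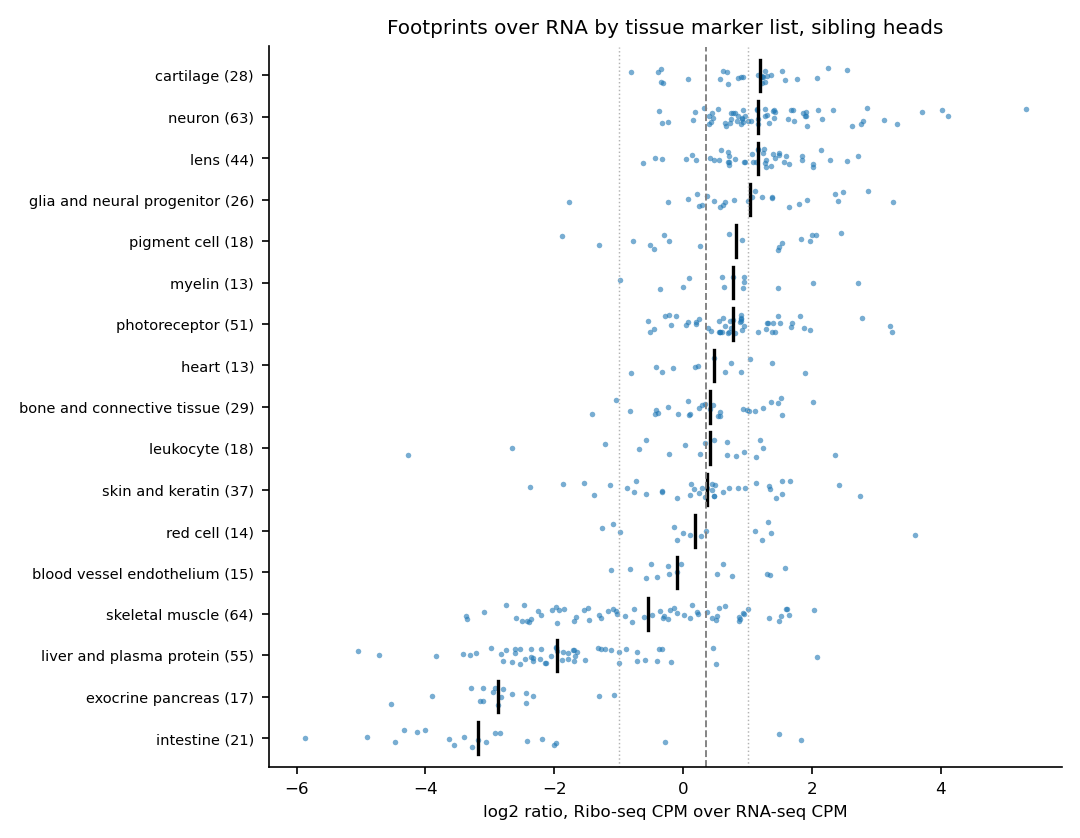
Log2 ratio of Ribo-seq CPM over RNA-seq CPM for the tested genes of each tissue list in sibling heads, each point 1 gene, the number tested in brackets, black bars at list medians, the dashed line at the median of all genes (0.35) and dotted lines at 2-fold. Cartilage (1.19), neuron and lens (1.16 each) have the highest medians, and intestine (-3.18), exocrine pancreas (-2.88) and liver (-1.96) the lowest.

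Among named genes with at least 10 CPM in the higher assay, the 20 highest included several genes of neurons. slc12a5a, the chloride exporter KCC2 of mature neurons, led with 503 CPM in footprints, from 3001 counts, against 4.46 CPM in RNA, from 67 counts, a ratio of 6.82 (6.47 to 7.19). It was followed by genes of the synaptic vesicle cycle, syt2a (5.32), the endophilin gene sh3gl2b (5.25) and the amphiphysin-related gene bin1a (5.18). Then came arf3b (5.08), a small GTPase of the Golgi, dner (4.72), a Notch ligand of neurons, opcml (4.62), a neuronal adhesion protein, and ntrk2b (4.49), the receptor of BDNF. The dynein heavy chain gene dync1h1 (4.14) closed the group. All 20 had few RNA counts, 51 to 338, and 386 to 3001 footprint counts. The RNA-seq transcript model of 11 of them was at least 90% coding, which leaves little untranslated sequence in it. Among all genes with both lengths, the 10% with the largest coding share began at 93.6% and the next 10% at 84.5%.

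Genes with at least 500 RNA counts, chosen for display after the values were seen, had lower maxima. The highest named ones were fbn2b (3.54), fibrillin of elastic fibers, dnm1a (3.45), the dynamin of synaptic vesicle recovery, sez6l2 (3.36), aplp2 (3.27), a relative of the amyloid precursor protein, ncam1a (3.21), a neural adhesion protein, and the GABA transporter gene slc6a11b (3.19). For fbn2b the coding length, 8003 bases, exceeded the transcript length, 6888 bases. aplp2 had 7107 footprint counts and 1854 RNA counts, so its interval was narrow (3.20 to 3.35).

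The 20 lowest had 2341 to 73446 RNA counts and 52 to 1099 footprint counts. Digestive organ genes held many of the places, among them apoa1a (-5.87), apoc2 (-5.05), fabp1b.1 (-4.91), apoea (-4.73), c6ast4 (-4.53) and pdia2 (-4.08), together with 3 mitochondrially encoded genes. Others were widely expressed. ccng1, cyclin G1, a p53 target, had 15.8 CPM in footprints against 570 CPM in RNA (-5.18, -5.48 to -4.88), and ccni, cyclin I, had 13.4 CPM against 323 CPM (-4.59). chac1, tpt1 and C19H6orf62 (-4.08) completed these. The coding share of the transcript was 46.4% for ccng1, 36.3% for ccni, 37.8% for chac1, 45.3% for tpt1 and 20.8% for C19H6orf62. Of all 20 lowest, 4 had a coding share of at least 90%. The part of coding share in these ratios was not tested.

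**Figure D4:**
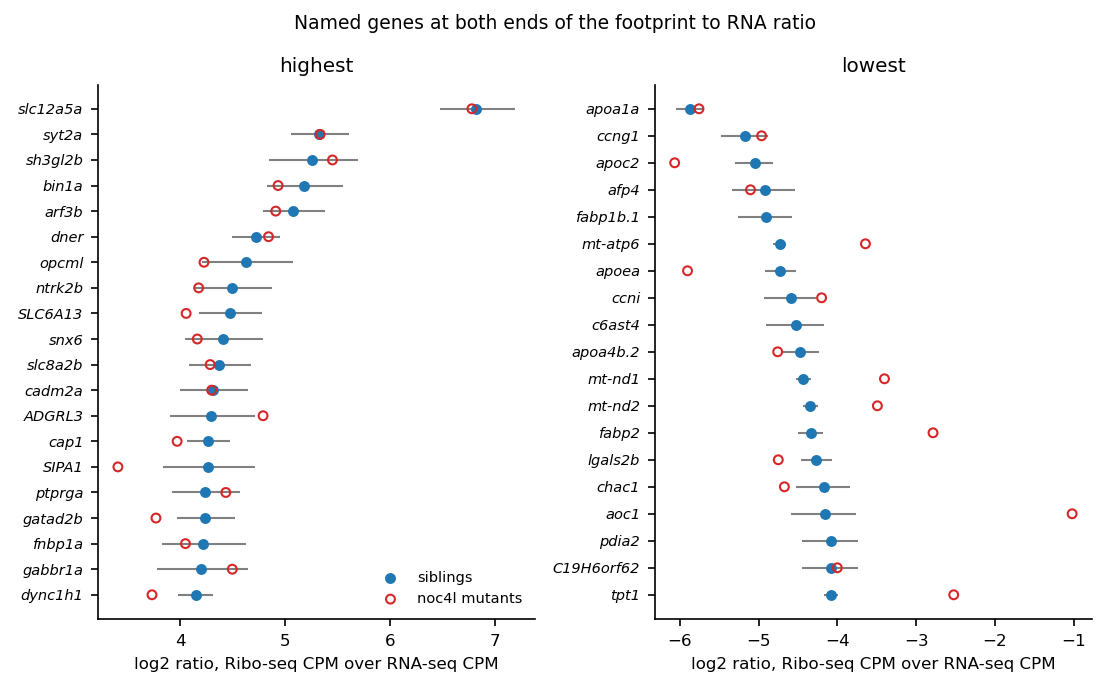
The 20 highest and 19 of the 20 lowest named genes by log2 ratio of Ribo-seq CPM over RNA-seq CPM in sibling heads, filled points with 95% counting intervals, and the ratio of the same gene in noc4l mutant heads as open circles where it passed the count minimum. All 20 highest were 2-fold or more high in mutants too, and the 16 lowest that could be tested in mutants were 2-fold or more low.

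Genes that failed the minimum in 1 assay got no ratio above. With at least 50 footprint counts but fewer than 50 RNA counts there were 847 genes, and 3678 genes had the reverse. Histone genes, counted by their nucleosome annotation, made up 130 of the 847. Of all 25196 joined IDs, 160 had that annotation. Replication-dependent histone mRNAs end in a stem-loop and not in a poly(A) tail, and the RNA-seq library was poly(A) selected. These 130 IDs had 126113 footprint counts, 2.12% of the library, against 244 RNA counts, and 79 of them had 0 RNA counts. Footprint counts were not whole for 97.7% of these IDs, so the values of single IDs are uncertain. Other such genes were elnb, elastin, with 1561 footprint counts against 34 RNA counts, and an ID of cplx2, a synaptic complexin, with 1439 against 19. Among genes short of footprints, intestinal genes stood out in number of RNA counts. anpepb, a brush border peptidase, had 26 footprint counts against 8402 RNA counts and cd36, a fatty acid uptake receptor, had 48 against 2825. fabp6, the bile acid-binding protein of the gut, had 0 against 2801, which at a floor of 3 footprint counts is at least 371-fold lower in footprints.

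Of the KEGG pathways annotated in the deposited tables, 245 had at least 10 tested genes. The lowest medians were those of pancreatic secretion (-1.84, 24 genes), chemical carcinogenesis by DNA adducts (-1.39, 11 genes), complement and coagulation (-1.15, 20 genes) and ribosome (-0.83, 128 genes, cytosolic and mitochondrial). Drug metabolism by cytochrome P450 followed (-0.73, 33 genes). The highest were nicotine addiction (1.67, 10 genes), cocaine addiction (1.58, 10 genes), amoebiasis (1.51, 15 genes), retrograde endocannabinoid signaling (1.46, 15 genes) and glutamatergic synapse (1.40, 25 genes). Of larger pathways, chosen after their values were seen, axon guidance had a median of 1.32 (34 of 59 high), synaptic vesicle cycle 1.18 (29 of 51 high) and cell adhesion molecules 1.08 (57 of 109 high). Of all genes 26.1% were high. Pathways were not recounted for genes with at least 500 RNA counts, so the part of RNA level in these medians was not tested.

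Footprints fall on the coding part of a transcript and RNA fragments on all of it, so the coding share of each transcript was set beside the ratio. Coding lengths came from the deposited Ribo-seq counts and TPM, and transcript lengths from the RNA-seq counts and FPKM, for 12234 genes. The median ratio was -0.09 in the 10% of genes with the smallest coding share and 1.15 in the 10% with the largest, with 12.3% and 56.1% of genes high. Spearman's rho across genes was 0.26, a description over genes that are not independent. For 532 genes the coding length exceeded the transcript length, and 58.5% of these were high against 24.6% of the other 11702. RNA level is tied to the ratio through its denominator and the count minimum, and the median was 1.55 in the 10% of genes with the lowest RNA CPM and -0.16 in the 10% with the highest. By coding length the median was 0.18 in the shortest 10% and 0.56 in the longest.

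**Figure D5:**
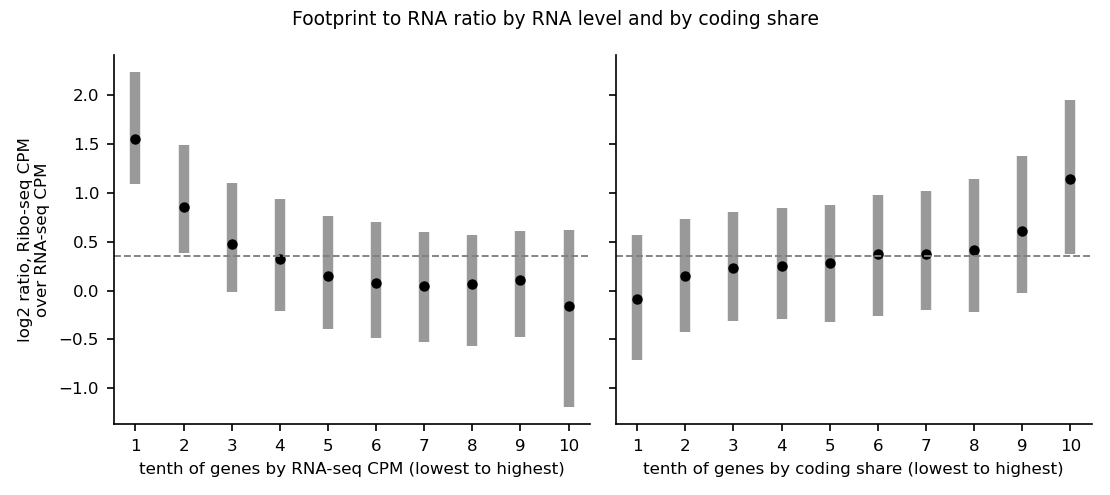
Log2 ratio of Ribo-seq CPM over RNA-seq CPM in sibling heads in 10 equal groups of genes ordered by RNA-seq CPM (left) and by coding share of the transcript (right), points at medians, bars from lower to upper quartile, and the dashed line at the median of all genes (0.35). Medians run from 1.55 to -0.16 with RNA level and from -0.09 to 1.15 with coding share.

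The noc4l mutant libraries, made separately and of another genotype, are no replicate but show which ratios recurred. Of 12274 genes tested in both, 2419 were high in both, 76.1% of the 3179 high in siblings and 84.6% of the 2859 high in mutants, and 719 were low in both, 70.9% of the 1014 and 59.7% of the 1205. In the mutant libraries 21.2% of 15220 tested genes were high and 12.3% low. The median of all genes tested was 0.15 in mutants and 0.35 in siblings. Mutant list medians cover only the members that also had at least 50 counts in each mutant library, so the 2 medians of a list can rest on different genes. Lists of neurons (1.16 in siblings, 1.20 in mutants), cartilage (1.19 and 1.21), selenoproteins (-0.81 and -0.78) and exocrine pancreas (-2.88 and -4.03) kept their side of equal loading. Ribosomal protein genes did not stay low, with medians of -1.29 in siblings and -0.05 in mutants for the small subunit and -1.16 and 0.00 for the large subunit. Lens genes had 1.16 in siblings and 0.03 in mutants, skeletal muscle genes -0.54 and -1.68, and heart genes 0.48 and -0.84. With 1 library each, whether these lists differ between genotypes was not tested.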

How the data were processed

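HISAT2 and featureCounts are named in the submitters' processing notes. Their versions, the genome build, rRNA removal and the counting of shared reads were not stated in the sources read. Estimated counts per gene, not all whole, were deposited by the authors for both assays. The authors' RNA-seq values also come as FPKM and their Ribo-seq values as TPM. The deposited fold changes, p-values and FDR of mutant against sibling were not used. Of the RNA-seq IDs, 1465 assembler-named ones (2.00% of RNA counts) had no footprint value. A Ribo-seq row without a gene ID was left out. Symbols came from the Ribo-seq table or an annotation table, which held 23498 of the joined IDs. Where IDs shared a symbol, lists used the ID with the most RNA counts.

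Ratios were taken in Python 3.11.15 (numpy 2.4.6, pandas 2.3.3, scipy 1.17.1, figures in matplotlib 3.10.9) after the 4 loci were left out, with 95% exact conditional binomial intervals of the counts rounded to whole numbers. The pipeline was checked on simulated data. High and low mean a ratio of at least 2 in either direction. The members and the 47 gene lists were chosen with earlier results of these data known. Of 2209 listed genes found, 1547 passed the minimum of 50 counts. The named genes are the 20 highest and 20 lowest with a proper symbol and at least 10 CPM in the higher assay, per list up to 4 with the most RNA counts and the 2 highest and 2 lowest, noc4l and the 4 loci. Other genes named in the text were chosen after their values were seen. Coding length was read from Ribo-seq count over TPM, calibrated on 10 mitochondrially encoded genes. The length implied there exceeded the coding length by 29.0 bases, which were subtracted. Of 1875 genes checked, 80.3% lay within 0.5 bases of a multiple of 3, against 33.3% by chance. Alternatives changed scaling (edgeR 4.0.16 TMM in R 4.3.3, other loci, other totals), count minimum, unit (TPM over FPKM), fold and shared reads. Some genes that the rule names are not reported here. Promoter sequences of ribosomal protein genes were not analysed here.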

Additional observations from a re-analysis of the deposited data

Results flagged for a closer look

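Across genotypes, 5 genes were 2-fold or more high in one genotype and 2-fold or more low in the other, a difference that was not tested, since each genotype had 1 library per assay. The gamma-crystallin gene crygm2d2 had a log2 ratio of 1.57 in siblings and -1.24 in mutants, the fast myosin gene myhb 1.65 and -1.25, the cardiac troponin gene tnnc1a 1.38 and -1.09, and zgc:174862 1.69 and -1.18. si:ch211-161h7.5 went the other way, with -1.95 in siblings and 1.74 in mutants. crygm2d2 (both assays), myhb (footprints) and zgc:174862 (RNA) had sibling counts that were not whole, and tnnc1a rested on 65 footprint and 63 RNA counts.

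Outside the ratio, histone IDs under the RNA minimum held 126113 sibling footprint counts. The 4 loci set aside held 31.5% (zgc:158463), 11.4% (BX537263.3), 6.17% (AL935186.10) and 2.01% (FO704772.3) of the sibling footprint counts, against 6, 0, 0 and 116 RNA counts, and what they are was not tested.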

How the results depend on the processing

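The scale of the ratio is set by convention, so the numbers of high and low genes moved with it. Against 3250 high and 1087 low genes, keeping the 4 loci in the total gave 892 and 4572 (all ratios lower by 1.03), subtracting the median of all genes gave 2154 and 1874, and TMM gave 2304 and 1720. These moved the share of high among high and low genes, 74.9%, to 16.3%, 53.5% and 57.3%, and totals without the digestive organ, muscle and mitochondrially encoded lists to 61.1%. A minimum of 10 counts gave 2278 low genes and one of 100 counts 624. No minimum with 0.5 counts added gave 6616 high and 4028 low genes, a 4-fold limit 933 and 256, and at least 500 RNA counts, chosen after seeing the data, 658 high genes. TPM over rescaled FPKM gave 3684 and 1063, and whole counts 2338 and 845. With the 4 loci kept, the neuropeptide list median and scg3 turned to -0.021, psmd1 to -0.023 and myh7l to -0.000117. With TPM over FPKM, hspb8 turned to 0.15, mrps15 to 0.36, ndufa4 to 0.40 and idi1 to 0.10. At 500 RNA counts the ion channel list turned to -0.48. The causes were not tested. Of 3630 values of 357 named genes under alternatives, 7 changed sign, 123 dropped inside 2-fold and 162 passed it. Of 505 list medians, 26, from 14 lists, changed side of the median of all genes. Depth limits genes near 50 counts, where intervals reached a width of 1.18. No paired analysis was possible because each assay and genotype has 1 library and the result comes from no test, and no library could be left out.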
